A study of Mus musculus with 21 samples.

Results

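The genes of glycolysis and the pentose phosphate pathway were followed in splenic T cells with and without a constitutively active gp130, which passes on the signals of interleukin-6 and related cytokines. The set holds 33 genes, chosen for their function, out of 51201 gene IDs in the deposited tables. Each was found by the symbol that the annotation pairs with its Ensembl ID. The groups were CD4+ cells of L-gp130fl/+;CD4Cre+/- mice (n = 6), CD4+ cells of CD4Cre+/- mice (n = 6), CD8+ cells of L-gp130fl/+;CD4Cre+/- mice (n = 3) and CD8+ cells of CD4Cre+/- mice (n = 6). All were C57BL/6J animals at postnatal day 35, and every group carries the Cre transgene, so the comparison is of the L-gp130 allele on a Cre background. The sequence behind the L-gp130 allele is not described in the sources used here. A Cre under the Cd4 promoter acts in thymocytes before the CD4 and CD8 lineages part, and both lineages of an L-gp130 mouse can therefore carry the active allele.

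Glycolysis splits glucose into pyruvate. Hexokinase traps the sugar in the cell, phosphofructokinase commits it, aldolase and triosephosphate isomerase divide it into triose phosphates, and the lower steps yield ATP and pyruvate, which lactate dehydrogenase turns into lactate. The pentose phosphate pathway branches off at glucose 6-phosphate. Its oxidative arm makes NADPH, and its non-oxidative arm exchanges ribose precursors with glycolytic intermediates. Resting T cells are known for low glycolytic flux, and stimulated, dividing T cells for high expression of glucose transporters and glycolytic enzymes.

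Polyadenylated RNA was sequenced without strand information. For CD4 cells, L-gp130 libraries held 17781085 to 21226510 counts and controls 27855757 to 35869208, so depth went with genotype. For CD8 cells, L-gp130 libraries held 17217364 to 19476881 counts and controls 17719183 to 19286396. Labelled males made up 4 of 6 L-gp130 and 1 of 6 control animals for CD4, and 2 of 3 L-gp130 and 4 of 6 control animals for CD8. Unless stated, sex was a term in each edgeR fit, so a fitted fold change can differ from the ratio of the group means. Among the CD4 libraries, control replicate 5 went against its labelled sex and L-gp130 replicate 1 lay far from the rest. Socs3, a feedback gene of gp130 signalling, lay between 264 and 432 CPM (median 371) in L-gp130 CD4 and between 116 and 140.1 CPM (median 126) in control CD4 libraries. In CD8 cells Socs3 was at 443, 513 and 492 CPM in the L-gp130 libraries and between 115 and 171 CPM (median 138) in the controls. The summed CPM of the T cell markers was 2555 to 3592 in L-gp130 and 2589 to 3186 in control CD4 libraries, and 2502 to 2722 in L-gp130 and 2846 to 3046.7 in control CD8 libraries. The erythroid markers summed to 6778 to 39415 CPM in L-gp130, against 4775 to 26930.0 CPM in control CD4 libraries, and to 67.4 to 154 CPM in L-gp130, against 48.6 to 682 CPM in control CD8 libraries. In bulk RNA, fewer cells of a type and less RNA per cell cannot be told apart.

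Genes for hexokinase, phosphofructokinase, aldolase, triosephosphate isomerase, pyruvate kinase and lactate dehydrogenase rose in L-gp130 cells of both lineages, while the GLUT1 gene Slc2a1 and the main enolase gene Eno1 were not called. With edgeR's quasi-likelihood test, adjusted over all genes, 10 of 33 members rose and 1 fell in L-gp130 CD4 cells, where 11.1% of the 15016 genes tested rose and 7.75% fell. In L-gp130 CD8 cells 14 of 33 rose, where 10.5% of the 14254 genes tested rose and another 10.5% fell. There 0 members fell by edgeR or by DESeq2, and at an unadjusted p under 0.05 the count was also 0. All 33 members passed the filter on low counts in both cell types. On GRCm38, Pfkp (ENSMUSG00000021196, chr13:6579768-6648777), Tpi1 (ENSMUSG00000023456, chr6:124810586-124814296), Gapdh (ENSMUSG00000057666, chr6:125161715-125166467), Pgam1 (ENSMUSG00000011752, chr19:41911923-41918660) and Ldha (ENSMUSG00000063229, chr7:46841475-46855627) are among those called in both. The median log2 fold change of the members was 0.22 in CD4 and 0.30 in CD8 cells, beside -0.01 over all genes tested in each.

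Every L-gp130 library lay above every control for 12 members in CD4 cells, against 7.68% of all genes tested. The same was so for 15 members in CD8 cells, against 11.7% of all genes. In the opposite direction the libraries did not overlap for 0 members in either cell type, where 5.85% of CD4 and 12.4% of CD8 genes did so. Of the members called higher, 9 were called in both cell types, which is 9 of 10 in CD4 and 9 of 14 in CD8 cells. They were Hk1, Pfkp, Aldoa, Tpi1, Gapdh, Pgk1, Pgam1, Pkm and Ldha. Over the 13819 genes tested in both cell types, 43.3% of those higher in CD4 cells were also higher in CD8 cells, and 46.3% the other way. Gpi1 was called in CD4 cells alone, and Slc2a3, Hk2, Eno3, G6pdx and Pgd in CD8 cells alone, which does not show that their responses differ. In fits that left out 1 library at a time, 6 CD4 calls (Pfkp, Gapdh, Pgk1, Pgam1, Pkm and Ldha) and 7 CD8 calls (Pfkp, Tpi1, Gapdh, Pgam1, Pkm, Ldha and G6pdx) never ended. The CD4 count of 10 was 6 without L-gp130 replicate 6 or without control replicate 1, and the CD8 count of 14 was 7 without L-gp130 replicate 1. The CD4 count was 16 with no sex term, and 12 when L-gp130 replicate 1 and control replicate 5 were both left out.

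**Figure D1:**
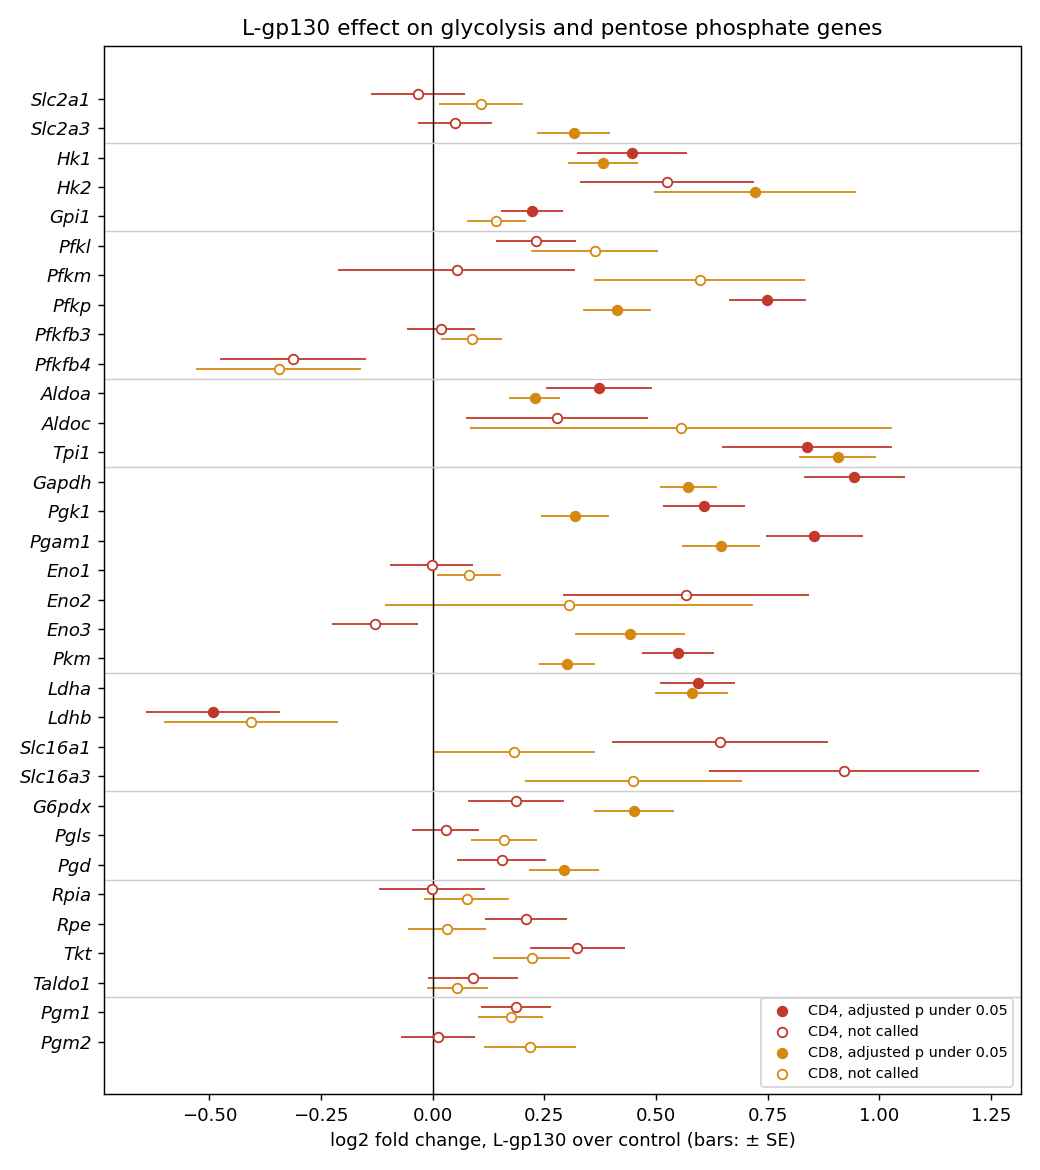
Log2 fold change of each of the 33 genes, L-gp130 over control, in pathway order from glucose uptake (top) to phosphoglucomutase (bottom), with bars of ± 1 SE. Filled points passed an edgeR adjusted p of 0.05: 11 in CD4 (10 higher, Ldhb lower) and 14 in CD8 cells.

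Levels of different genes were compared in TPM, a unit that corrects for transcript length and library size. Together the 33 genes held 5091 ± 478 TPM in L-gp130 and 3676 ± 112 TPM in control CD4 cells (SD, n = 6 each), and 4159 ± 159 TPM in L-gp130 (n = 3) and 3136 ± 209 TPM in control CD8 cells (n = 6). Libraries of the 2 genotypes did not overlap in this sum, which spanned 4564 to 5841 TPM in L-gp130 and 3515 to 3836 TPM in control CD4 cells, and 4019 to 4332 TPM in L-gp130 and 2915 to 3469.6 TPM in control CD8 cells. Gapdh, which oxidises glyceraldehyde 3-phosphate, was the most abundant member in all 4 groups, at 1389 ± 190.2 TPM in L-gp130 and 727 ± 31.8 TPM in control CD4 cells. Ldha ranked 2 in all 4 groups, with 657 ± 54.5 TPM in L-gp130 and 451 ± 17.6 TPM in control CD4 cells. Eno1, which makes phosphoenolpyruvate, ranked 5 in L-gp130 and 3 in control CD4 cells, at 384 ± 39.7 and 382 ± 24.5 TPM, a difference smaller than the spread. The brain-type genes Aldoc and Eno2 and the inducible hexokinase Hk2 were the lowest 3 in all 4 groups, each at a mean of 2.63 TPM or less.

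**Figure D2:**
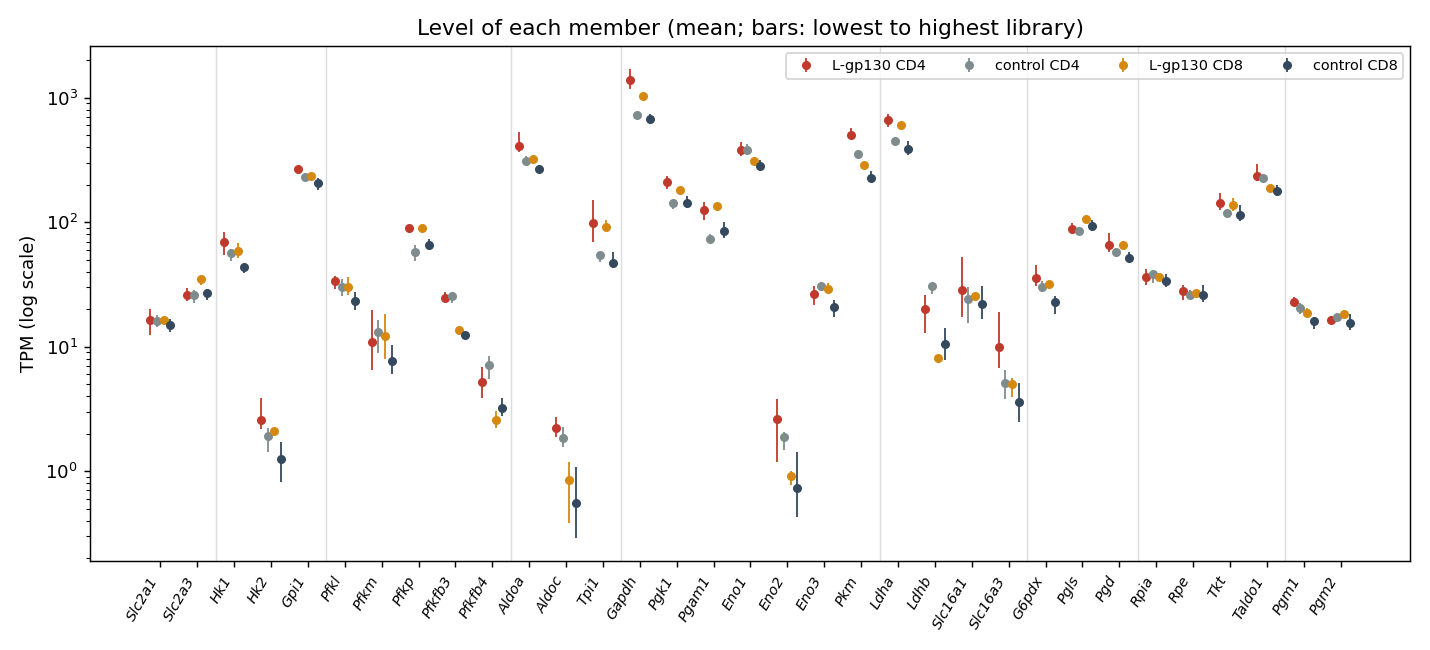
Transcript level of each gene in TPM (log scale), with points for group means and bars from the lowest to the highest library, in pathway order. Gapdh reaches a mean of 1389 ± 190.2 TPM (± SD) in L-gp130 CD4 cells, and Hk2, Eno2 and Aldoc lie lowest in every group.

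Of the glucose transporters, only Slc2a3 was called, and only in CD8 cells. Slc2a1, which encodes GLUT1, lay between 29.3 and 48.8 CPM (median 36.4) in L-gp130 and between 30.3 and 42.5 CPM (median 32.8) in control CD4 libraries. In CD8 cells Slc2a1 was at 37.8, 42.9 and 36.8 CPM in L-gp130 and between 32.7 and 40.1 CPM (median 36.8) in control libraries. The groups overlapped in both cell types, with log2 fold changes of -0.03 ± 0.11 (SE; edgeR adjusted p = 0.852) and 0.11 ± 0.09 (adjusted p = 0.443). Slc2a3, which encodes the high-affinity transporter GLUT3, lay between 56.2 and 73.9 CPM (median 63.7) in L-gp130 and between 55.2 and 64.3 CPM (median 61.6) in control CD4 libraries. In CD8 cells Slc2a3 was at 88.9, 82.04 and 92.5 CPM in L-gp130 and between 60.3 and 75.2 CPM (median 73.00) in control libraries. The CD4 ranges overlapped (log2 fold change 0.05 ± 0.08, edgeR adjusted p = 0.705). In CD8 cells every L-gp130 library was above every control, and Slc2a3 rose by 0.32 ± 0.08 on the log2 scale (edgeR adjusted p = 0.0207), no longer called once L-gp130 replicate 1 or 3 was left out (adjusted p 0.0854 to 0.152).

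Hexokinase 1 rose in both lineages, and the less abundant hexokinase 2 rose in CD8 cells. Hk1, the constitutive hexokinase, lay between 161 and 271 CPM (median 207) in L-gp130 and between 157 and 177 CPM (median 164) in control CD4 libraries. In CD8 cells Hk1 was at 232, 187 and 192 CPM in L-gp130 and between 147 and 168 CPM (median 158) in control libraries. The CD4 ranges overlapped, since L-gp130 replicate 4 lay within the controls, and the CD8 ranges did not. The log2 fold changes of Hk1 were 0.45 ± 0.12 in CD4 (edgeR adjusted p = 0.0236) and 0.38 ± 0.08 in CD8 cells (adjusted p = 0.00699). The CD4 call ended in 4 of 12 fits without 1 library, those without L-gp130 replicate 6 or control replicate 1, 3 or 6 (adjusted p 0.0550 to 0.203). Leaving out L-gp130 replicate 1 undid the CD8 call (adjusted p = 0.0535).

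Hk2, the hexokinase induced on stimulation, was at 18.7 CPM in L-gp130 CD4 replicate 1 and between 10.1 and 10.6 CPM in the other L-gp130 CD4 libraries, and between 6.77 and 9.07 CPM (median 8.17) in control CD4 libraries. In CD8 cells Hk2 was at 10.04, 9.92 and 9.49 CPM in L-gp130 and between 3.86 and 8.27 CPM (median 5.65) in control libraries. No L-gp130 library overlapped the controls in either cell type. The CD4 difference did not pass edgeR's test (log2 fold change 0.52 ± 0.20, adjusted p = 0.0798), but it did without L-gp130 replicate 1 and control replicate 5 (0.43, adjusted p = 0.0204). In CD8 cells Hk2 rose by 0.72 ± 0.23 on the log2 scale (adjusted p = 0.0441), and that call ended in 7 of 9 fits without 1 library, all but those without control replicate 3 or 4 (adjusted p 0.0621 to 0.156). Gpi1, the glucose 6-phosphate isomerase, was at 474 ± 38.3 CPM in L-gp130, against 388 ± 26.9 CPM in control CD4 cells, and 474 ± 13.3 CPM in L-gp130, against 429 ± 26.9 CPM in control CD8 cells (SD). Neither pair of groups overlapped. The CD4 rise of 0.22 ± 0.07 (edgeR adjusted p = 0.0416) was lost in 9 of 12 fits without 1 library, all but those without L-gp130 replicate 1, 3 or 4 (adjusted p 0.0535 to 0.141), and the CD8 value was 0.14 ± 0.07 (adjusted p = 0.15).

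Among the phosphofructokinase genes, the platelet-type Pfkp rose in both cell types. Pfkp lay between 193 and 246 CPM (median 218) in L-gp130 and between 119 and 148 CPM (median 133) in control CD4 libraries. In CD8 cells Pfkp was at 226, 248 and 206 CPM in L-gp130 and between 158 and 187 CPM (median 169) in control libraries. No library overlapped in either cell type, with log2 fold changes of 0.75 ± 0.09 (edgeR adjusted p = 9.9e-05) and 0.41 ± 0.08 (adjusted p = 0.00436). Pfkp shares 748 exonic bases with Pitrm1 on the other strand, which unstranded reads cannot separate. Pitrm1 itself had a log2 fold change of 0.06 (adjusted p = 0.661) in CD4 and 0.26 (adjusted p = 0.0560) in CD8 cells.

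The other phosphofructokinase genes were not called in either cell type with the deposited gene counts. With Salmon reads summed per gene Pfkl was called higher in CD4 (edgeR adjusted p = 0.0146) and CD8 cells (0.00511), and Pfkm in CD8 cells (0.0245). With no sex term Pfkl was called in CD4 cells too (0.0302). The liver-type Pfkl was at 79.3 ± 7.37 CPM in L-gp130, against 67.3 ± 5.79 CPM in control CD4 cells, and 79.7 ± 16.8 CPM in L-gp130, against 62.2 ± 8.49 CPM in control CD8 cells (log2 fold changes 0.23 ± 0.09 and 0.36 ± 0.14). The muscle-type Pfkm varied widely between libraries, with 12.4 to 39.9 CPM in L-gp130, against 18.1 to 29.1 CPM in control CD4 cells, and 37.03, 17.1 and 20.5 CPM in L-gp130 and 12.5 to 21.9 CPM in control CD8 cells. Its log2 fold changes were 0.05 ± 0.26 and 0.60 ± 0.24. Pfkfb3 and Pfkfb4 encode the bifunctional enzymes that make and break fructose 2,6-bisphosphate, the activator of phosphofructokinase. Pfkfb3 was at 77.2 ± 7.81 CPM in L-gp130, against 74.3 ± 2.96 CPM in control CD4 cells, and 47.3 ± 1.22 CPM in L-gp130, against 44.5 ± 1.72 CPM in control CD8 cells. Pfkfb4 was at 9.99 ± 1.80 CPM in L-gp130, against 12.7 ± 1.65 CPM in control CD4 cells (log2 fold change -0.31 ± 0.16, edgeR adjusted p = 0.2). In CD8 cells Pfkfb4 was at 5.84 ± 1.16 CPM in L-gp130, against 7.43 ± 0.941 CPM in control libraries (-0.34 ± 0.18, adjusted p = 0.21). It was called lower in CD4 cells when Salmon's reads per transcript were summed per gene (adjusted p = 0.0448).

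At the triose steps both the main aldolase and triosephosphate isomerase rose. Aldoa, the aldolase that splits fructose 1,6-bisphosphate, lay between 356 and 577 CPM (median 388) in L-gp130 and between 280.2 and 354 CPM (median 286) in control CD4 libraries. In CD8 cells Aldoa was at 382, 384 and 383 CPM in L-gp130 and between 309 and 344 CPM (median 324) in control libraries. The libraries did not overlap, although L-gp130 CD4 replicate 4, at 356 CPM, lay just above the highest control. The rises of 0.37 ± 0.12 in CD4 (edgeR adjusted p = 0.0439) and 0.23 ± 0.06 in CD8 cells (adjusted p = 0.0173) were each lost in some fits without 1 library. These were 8 of 12 CD4 fits, all but those without L-gp130 replicate 1, 3 or 4 or control replicate 2 (adjusted p 0.0637 to 0.184). In CD8 cells they were the fits without any 1 of the 3 L-gp130 libraries (0.0724 to 0.0737). The CD4 call also ended with upper quartile scaling (adjusted p = 0.0505), with no filter (0.0577) and with libraries thinned to equal depth (0.0516).

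Tpi1, which interconverts the triose phosphates, lay between 75.5 and 178 CPM (median 106) in L-gp130 and between 52.1 and 62.1 CPM (median 56.6) in control CD4 libraries. In CD8 cells Tpi1 was at 125, 109.6 and 104 CPM in L-gp130 and between 56.4 and 72.3 CPM (median 57.8) in control libraries. Every L-gp130 library was above every control in both cell types. Tpi1 rose by 0.84 ± 0.19 in CD4 cells (edgeR adjusted p = 0.01) and by 0.91 ± 0.09 in CD8 cells (adjusted p = 0.000123), where it ranked 61 by p among the 14254 genes tested. Leaving out L-gp130 replicate 6 or control replicate 1 undid its CD4 call (adjusted p 0.0767 to 0.0793). Aldoc, the brain-type aldolase, was at 2.79 ± 0.365 CPM in L-gp130, against 2.21 ± 0.425 CPM in control CD4 cells, and 1.29 ± 0.656 CPM in L-gp130, against 0.875 ± 0.422 CPM in control CD8 cells, and was not called.

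In lower glycolysis, from triose phosphate to pyruvate, 4 of 7 genes rose in CD4 and 5 of 7 in CD8 cells. Over all genes tested 11.1% rose in CD4 and 10.5% in CD8 cells. Gapdh lay between 1015 and 1655 CPM (median 1240.4) in L-gp130 and between 578 and 680.2 CPM (median 629) in control CD4 libraries. In CD8 cells Gapdh was at 1129, 1095 and 1015 CPM in L-gp130 and between 656 and 791 CPM (median 725) in control libraries. All L-gp130 libraries were above all controls, and Gapdh rose by 0.94 ± 0.11 (edgeR adjusted p = 0.00014) and 0.57 ± 0.06 on the log2 scale (adjusted p = 0.00035). Gapdh has 78 near-identical copies in the annotation, between which reads may be split. Reads that Salmon gave to the copies were 0.232% to 7.62% of the summed reads of Gapdh and its copies in a library, with means of 2.0% in L-gp130 and 4.77% in control CD4 cells and of 1.27% in L-gp130 and 0.303% in control CD8 cells.

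Pgk1, the phosphoglycerate kinase that makes the first ATP of glycolysis, lay between 223 and 319.7 CPM (median 270.1) in L-gp130 and between 159 and 188 CPM (median 172) in control CD4 libraries. In CD8 cells Pgk1 was at 231, 246 and 217 CPM in L-gp130 and between 176 and 209 CPM (median 177) in control libraries. No library overlapped, and Pgk1 rose by 0.61 ± 0.09 in CD4 (edgeR adjusted p = 0.0008) and 0.32 ± 0.08 in CD8 cells (adjusted p = 0.0151), the second call ending without L-gp130 replicate 1 or 2 (adjusted p 0.0605 to 0.0834). Pgam1, the phosphoglycerate mutase, lay between 124 and 191 CPM (median 156) in L-gp130 and between 83.9 and 92.3 CPM (median 85.1) in control CD4 libraries. In CD8 cells Pgam1 was at 185, 188 and 179 CPM in L-gp130 and between 103 and 138 CPM (median 116) in control libraries. Again the groups did not overlap in either cell type. Pgam1 rose by 0.85 ± 0.11 in CD4 (edgeR adjusted p = 0.000222) and 0.65 ± 0.09 in CD8 cells (adjusted p = 0.000906).

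At the next step, enolase, the main gene was not called. Eno1, the main enolase gene in these cells, lay between 535 and 735 CPM (median 556) in L-gp130 and between 529 and 644 CPM (median 536) in control CD4 libraries. In CD8 cells Eno1 was at 538, 568 and 504 CPM in L-gp130 and between 477 and 551 CPM (median 491) in control libraries. The groups overlapped, with log2 fold changes of -0.00 ± 0.09 (edgeR adjusted p = 0.989) and 0.08 ± 0.07 (adjusted p = 0.449). Eno2, the neuronal enolase, was at 3.62 ± 1.28 CPM in L-gp130, against 2.47 ± 0.299 CPM in control CD4 cells, and 1.25 ± 0.194 CPM in L-gp130, against 1.03 ± 0.496 CPM in control CD8 cells, with no call. Eno3, the muscle enolase, was at 20.9 ± 1.97 CPM in L-gp130, against 22.9 ± 1.71 CPM in control CD4 cells, with overlapping libraries. In CD8 cells Eno3 was at 23.1, 29.7 and 24.4 CPM in L-gp130 and between 15.7 and 21.3 CPM (median 19.1) in control libraries, with no overlap. Eno3 rose in CD8 cells by 0.44 ± 0.12 (edgeR adjusted p = 0.0281), a call lost without any 1 of the 3 L-gp130 libraries (adjusted p 0.05003 to 0.159), and its CD4 value was -0.13 ± 0.10 (adjusted p = 0.369).

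Pkm, the pyruvate kinase that ends glycolysis, lay between 796 and 1029 CPM (median 881) in L-gp130 and between 560.4 and 656 CPM (median 583) in control CD4 libraries. In CD8 cells Pkm was at 618, 620.0 and 583 CPM in L-gp130 and between 468 and 555 CPM (median 485) in control libraries. The libraries did not overlap, and Pkm rose by 0.55 ± 0.08 in CD4 (edgeR adjusted p = 0.00056) and 0.30 ± 0.06 in CD8 cells (adjusted p = 0.0079). The gene makes an M1 (adult muscle) and an M2 form from a pair of mutually exclusive exons, and proliferating cells are known for the M2 form. The M1 exon is at chr9:59675029-59675195 and the M2 exon at chr9:59675568-59675734 (GRCm38, plus strand, GENCODE M21). They are shown because they tell the M1 and M2 forms apart. Each is 167 bases long, 103 bases are identical in place, and capitals mark the 64 that differ.
Pkm M1 exon: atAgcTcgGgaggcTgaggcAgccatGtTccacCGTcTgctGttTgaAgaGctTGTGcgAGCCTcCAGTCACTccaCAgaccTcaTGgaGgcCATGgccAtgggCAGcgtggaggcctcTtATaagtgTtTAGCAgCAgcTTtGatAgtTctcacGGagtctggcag
Pkm M2 exon: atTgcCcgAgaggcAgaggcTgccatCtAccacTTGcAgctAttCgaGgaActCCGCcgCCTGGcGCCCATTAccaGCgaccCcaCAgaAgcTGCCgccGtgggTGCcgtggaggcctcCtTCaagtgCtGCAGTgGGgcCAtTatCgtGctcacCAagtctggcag
At 61.7% identity the exons can be told apart by reads that cross them. M2 transcripts dominated in all 4 groups. The shares rest on Salmon's estimates for a whole M1 and a whole M2 transcript, not on the reads of these exons alone. The M1 share of M1 plus M2 TPM was 5.65% to 7.06% in L-gp130 and 4.34% to 6.47% in control CD4 libraries, and 3.97% to 5.05% in L-gp130 and 4.23% to 6.27% in control CD8 libraries. These ranges overlapped, and neither difference passed an exact permutation test after adjustment (adjusted p = 0.0693 in CD4 and 0.37 in CD8 cells).

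Lactate dehydrogenase A rose in both cell types, while its sister gene moved the other way in CD4 cells. Ldha, whose enzyme favours the step from pyruvate to lactate, lay between 575 and 790.5 CPM (median 681) in L-gp130 and between 428 and 486 CPM (median 437) in control CD4 libraries. In CD8 cells Ldha was at 669.6, 685 and 643 CPM in L-gp130 and between 395 and 513 CPM (median 432) in control libraries. The groups did not overlap, and Ldha rose by 0.59 ± 0.08 in CD4 (edgeR adjusted p = 0.000457) and 0.58 ± 0.08 in CD8 cells (adjusted p = 0.00111). Ldhb, whose enzyme favours the return to pyruvate, lay between 11.7 and 22.3 CPM (median 16.7) in L-gp130 and between 21.9 and 26.7 CPM (median 24.6) in control CD4 libraries. In CD8 cells Ldhb was at 7.52, 7.64 and 6.80 CPM in L-gp130 and between 7.36 and 12.98 CPM (median 9.30) in control libraries. Replicate 5 of the L-gp130 CD4 libraries, at 22.3 CPM, reached into the control range, and the CD8 ranges overlapped too. Ldhb fell in CD4 cells (log2 fold change -0.49 ± 0.15, edgeR adjusted p = 0.0381), a call lost in 5 of 12 fits without 1 library, those without L-gp130 replicate 3 or 6 or control replicate 1, 2 or 5 (adjusted p 0.0569 to 0.248). The CD8 value was -0.41 ± 0.19 (adjusted p = 0.164).

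Slc16a3 encodes MCT4, a lactate exporter, and Slc16a1 encodes MCT1, which carries lactate either way. Slc16a3 was at 29.8 CPM in L-gp130 CD4 replicate 1, between 9.68 and 13.3 CPM in the other L-gp130 CD4 libraries, and between 5.82 and 8.60 CPM (median 6.88) in control CD4 libraries. In CD8 cells Slc16a3 was at 7.01, 10.2 and 9.95 CPM in L-gp130 and between 4.50 and 9.36 CPM (median 6.72) in control libraries. The CD4 groups did not overlap and the CD8 groups did. The CD4 log2 fold change of 0.92 ± 0.30 missed the threshold (edgeR adjusted p = 0.0505) and passed it at 0.77 without L-gp130 replicate 1 and control replicate 5 (adjusted p = 0.00584). The CD8 value was 0.45 ± 0.24 (adjusted p = 0.214). Slc16a1 ranged over 49.3 to 163 CPM in L-gp130, against 48.3 to 87.3 CPM in control CD4 cells, and was at 71.9, 71.8 and 70.3 CPM in L-gp130 CD8 cells and 48.3 to 84.95 CPM in control CD8 cells. It was not called (log2 fold changes 0.64 ± 0.24 and 0.18 ± 0.18). Among the CD8 controls it was at 48.3 to 51.1 CPM in replicates 1 to 3 and 71.7 to 85.0 CPM in replicates 4 to 6, and against replicates 1 to 3 alone it was called higher (adjusted p = 0.00234).

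**Figure D3:**
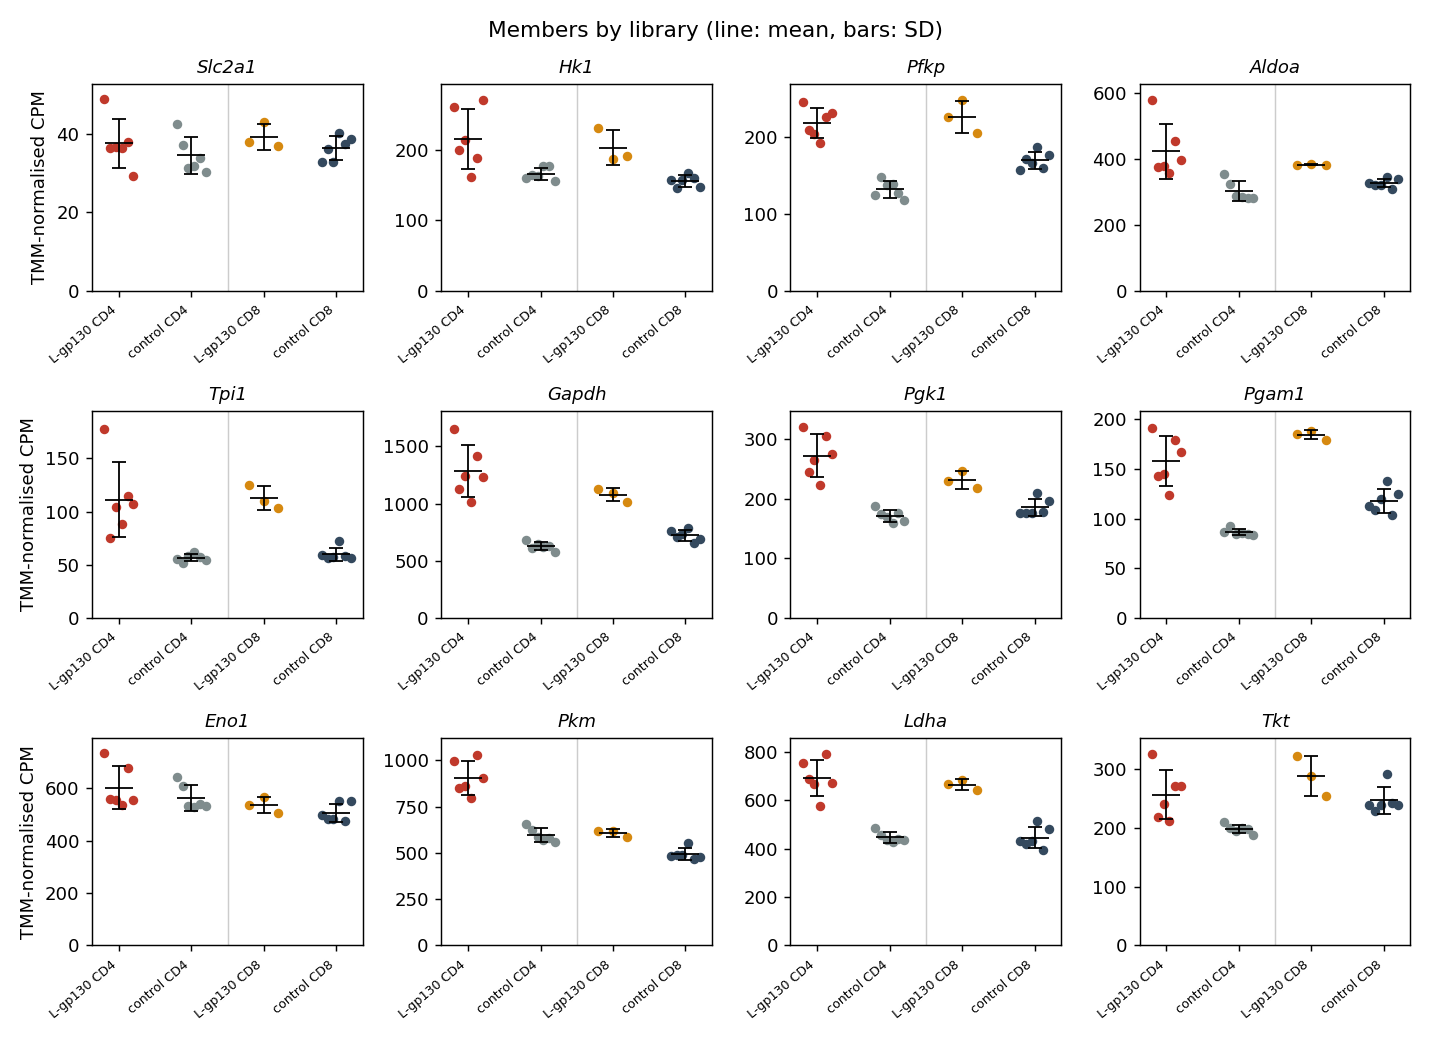
TMM-normalised CPM of 12 genes in every library, with the group mean and SD. For Pfkp, Aldoa, Tpi1, Gapdh, Pgk1, Pgam1, Pkm and Ldha every L-gp130 library lies above every control of its cell type, and for Slc2a1 and Eno1 the groups overlap.

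Promoter sequence was searched for motifs because several lower glycolytic genes rose in both cell types. RefSeq windows (GRCm38.p6) of the 250 bases before a start site matched 32 of the 33 genes, with 45 windows in all, and Slc2a3 was not matched. The motif ACGTG, a core sequence bound by HIF factors, was found on either strand in 16 of the 45 windows (35.6%), against 16.6% of the 32851 windows of all genes. GCGTG, another HIF core, was in 25 (55.6%) against 28.2%. CACGTG, the E-box bound by MYC, which contains ACGTG on both strands, was in 4 (8.89%) against 6.02%. TTCNNNGAA, the site form bound by STAT factors, was in 2 (4.44%) against 7.02%, both of them for genes with no call (Aldoc and Pfkm). Its narrower form TTCCNGGAA was in 1 (2.22%) against 0.913%, so the 2 forms differ in direction and rest on few windows. The GC box GGGCGG was in 27 of the 45 member windows and in 32.7% of all windows, so this motif too was more frequent in the member windows. A gene can have several windows, and a match is a description and not a binding site. Of the 6 genes whose CD4 calls never ended, Pfkp and Pkm have no window printed here. The Pkm window at chr9:59656326-59656575 had no match of ACGTG or GCGTG, and that at chr9:59656977-59657226 held ACGTG at 1 place. Windows are printed for Ldha, Pgam1, Pgk1 and Gapdh, whose CD4 calls never ended, and for Tpi1, which rose in CD8 cells and had no match. For Ldha it is the one of 2 windows with ACGTG. They lie at chr7:46845554-46845803 on the plus strand for Ldha, chr19:41911621-41911870 on the plus strand for Pgam1, chrX:106186850-106187099 on the plus strand for Pgk1, chr6:125165774-125166023 on the minus strand for Gapdh and chr6:124814159-124814408 on the minus strand for Tpi1. They run 5′ to 3′ toward the start site, and capitals mark ACGTG or GCGTG and their reverse complements, with any adjoining base of CACGTG.
Ldha: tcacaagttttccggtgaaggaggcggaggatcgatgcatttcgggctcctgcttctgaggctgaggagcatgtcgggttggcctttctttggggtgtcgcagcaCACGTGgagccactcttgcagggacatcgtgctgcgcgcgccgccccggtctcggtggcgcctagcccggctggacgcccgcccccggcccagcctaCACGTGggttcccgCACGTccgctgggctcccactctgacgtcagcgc
Pgam1: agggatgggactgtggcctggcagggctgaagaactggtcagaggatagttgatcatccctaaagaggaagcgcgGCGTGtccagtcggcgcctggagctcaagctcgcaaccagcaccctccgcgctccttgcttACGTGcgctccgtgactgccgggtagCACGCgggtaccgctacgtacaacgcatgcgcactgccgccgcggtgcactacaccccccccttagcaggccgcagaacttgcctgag
Pgk1: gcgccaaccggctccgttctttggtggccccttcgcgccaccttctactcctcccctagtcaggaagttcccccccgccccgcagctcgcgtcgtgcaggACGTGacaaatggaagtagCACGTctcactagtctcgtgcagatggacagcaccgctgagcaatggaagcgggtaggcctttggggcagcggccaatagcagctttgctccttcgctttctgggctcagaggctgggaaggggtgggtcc
Gapdh: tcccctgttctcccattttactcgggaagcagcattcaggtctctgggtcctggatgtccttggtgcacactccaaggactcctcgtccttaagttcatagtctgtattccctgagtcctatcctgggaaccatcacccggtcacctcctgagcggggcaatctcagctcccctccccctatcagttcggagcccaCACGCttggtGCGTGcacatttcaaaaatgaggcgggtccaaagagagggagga
Tpi1: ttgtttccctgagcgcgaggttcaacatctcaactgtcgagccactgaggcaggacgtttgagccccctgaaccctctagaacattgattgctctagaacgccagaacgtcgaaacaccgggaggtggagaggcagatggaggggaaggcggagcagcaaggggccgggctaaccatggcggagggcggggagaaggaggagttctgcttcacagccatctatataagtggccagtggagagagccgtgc
The Ldha window held CACGTG at 2 places, and no other printed window held it. Pgk1 held only ACGTG, Gapdh only GCGTG, and Pgam1 both.

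Shares among isozymes differed between the genotypes in CD4 cells. Each share is 1 gene's part of the summed TPM of its set, tested with a 2-sided exact permutation test and adjusted over 28 shares in both cell types. This test had no sex term, and labelled sex was unequal between the CD4 groups. The smallest p that the design allows is 0.00216 for 6 against 6 libraries and 0.0238 for 3 against 6. Pfkp held 66.8% ± 0.953 in L-gp130 and 57.1% ± 1.48 in control CD4 libraries of the phosphofructokinase transcripts (adjusted p = 0.0202, exact test), with no overlap. Pfkl held 25.1% ± 2.49 in L-gp130 and 29.9% ± 1.14 in control CD4 libraries (adjusted p = 0.0202, exact test). The Pfkp share in CD8 cells was 67.9% ± 0.420 in L-gp130 and 68.1% ± 2.58 in control CD8 libraries. Ldhb held 2.99% ± 0.614 in L-gp130 and 6.34% ± 0.228 in control CD4 libraries of the lactate dehydrogenase transcripts (adjusted p = 0.0202, exact test), and its ranges were 1.88% to 3.49% in L-gp130 and 5.98% to 6.62% in control CD4 libraries. In CD8 cells the Ldhb share was 1.34% ± 0.0453 in L-gp130 and 2.65% ± 0.670 in control CD8 libraries, also without overlap, at the smallest p of the design (exact p = 0.0238, adjusted p = 0.0833). No CD8 share passed: 0 of 14, with 3 at an unadjusted p under 0.05 (Eno1, Eno3 and Ldhb). Pgm1 held 58.5% ± 2.11 in L-gp130 and 54.4% ± 1.92 in control CD4 libraries of the Pgm1 plus Pgm2 transcripts (adjusted p = 0.0303, exact test). That call was lost in 7 of 12 tests without 1 library, those without L-gp130 replicate 3 or 5 or control replicate 1, 2, 3, 4 or 6 (adjusted p = 0.0606, exact test), and with shares of Salmon reads (0.0716). With L-gp130 replicate 1 and control replicate 5 left out, 0 of the 14 CD4 shares passed, with adjusted p = 0.0556 for these 4 shares and a Pfkp difference of 9.18 percentage points.

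**Figure D4:**
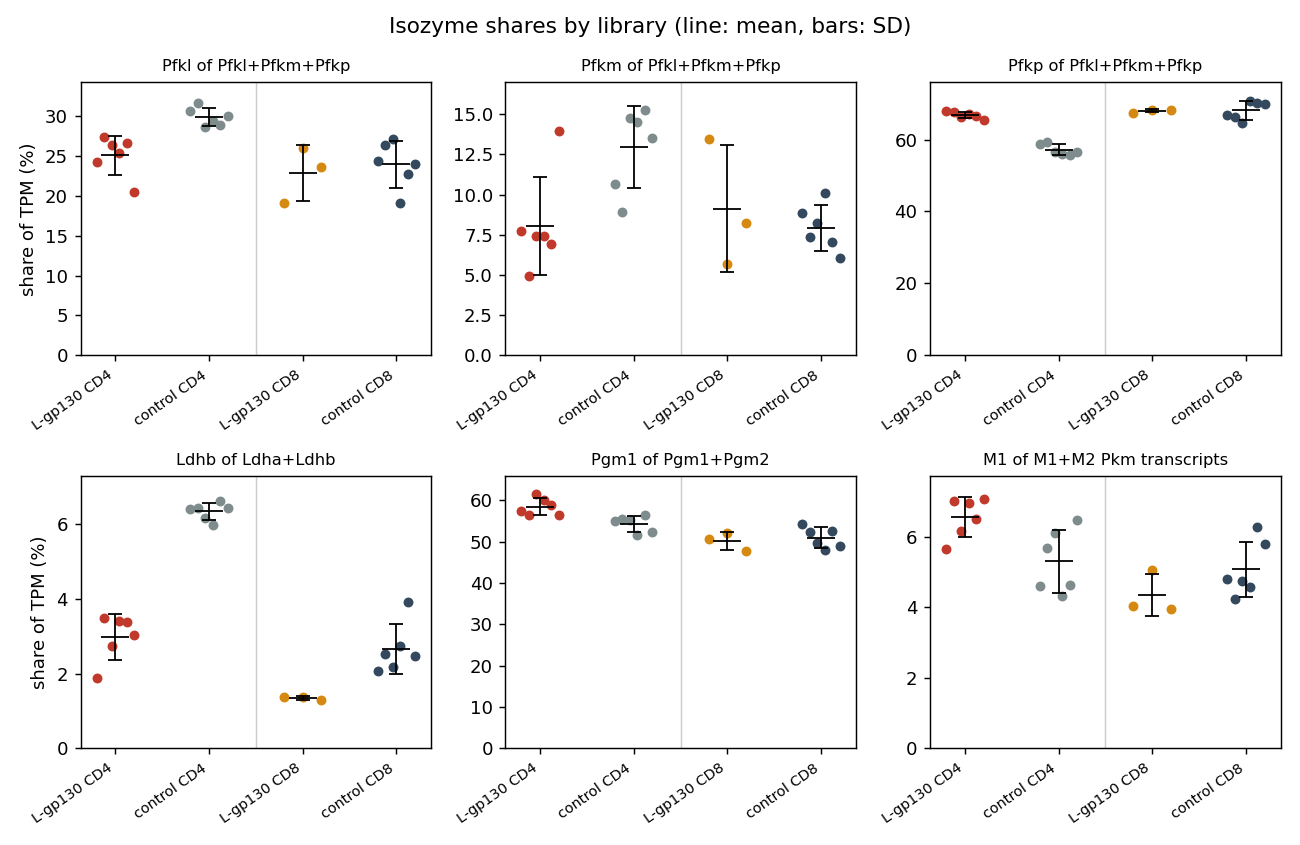
Share of TPM held by 1 isozyme or transcript form of its set in every library, with the group mean and SD. In CD4 cells the Pfkp share of the L-gp130 libraries lies above all controls, and in both cell types the Ldhb share of the L-gp130 libraries lies below all controls.

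In the oxidative arm of the pentose phosphate pathway 2 of 3 genes rose in CD8 cells. Over all genes tested 10.5% rose in CD8 and 11.1% in CD4 cells. In CD4 cells 0 of 3 were called by edgeR, as by DESeq2 and at an unadjusted p under 0.05, but with no sex term edgeR called G6pdx (log2 fold change 0.33, adjusted p = 0.0439). G6pdx, the glucose 6-phosphate dehydrogenase that commits sugar to the pathway, was at 84.2 CPM in L-gp130 CD4 replicate 1, between 53.5 and 63.4 CPM in the other L-gp130 CD4 libraries, and between 43.99 and 61.2 CPM (median 48.2) in control CD4 libraries. In CD8 cells G6pdx was at 68.01, 61.7 and 66.1 CPM in L-gp130 and between 40.3 and 53.4 CPM (median 47.6) in control libraries. The CD4 groups overlapped (log2 fold change 0.19 ± 0.11, edgeR adjusted p = 0.241). In CD8 cells they did not, and G6pdx rose by 0.45 ± 0.09 (adjusted p = 0.00607). G6pdx shares 418 exonic bases with Ikbkg on the other strand, whose log2 fold change was -0.07 in CD4 and -0.19 in CD8 cells, both uncalled.

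Pgd, the 6-phosphogluconate dehydrogenase, was at 138 CPM in L-gp130 CD4 replicate 1, between 91.9 and 105 CPM in the other L-gp130 CD4 libraries, and between 77.5 and 96.5 CPM (median 86.4) in control CD4 libraries. In CD8 cells Pgd was at 124, 119 and 111 CPM in L-gp130 and between 87.5 and 106 CPM (median 94.96) in control libraries. Only the CD8 groups were apart, and there Pgd rose by 0.29 ± 0.08 (edgeR adjusted p = 0.0235), a call lost without L-gp130 replicate 1 or 2 (adjusted p 0.0864 to 0.123). The CD4 value was 0.16 ± 0.10 (adjusted p = 0.298). Pgls, the lactonase between these enzymes, was at 61.8 ± 6.40 CPM in L-gp130, against 56.4 ± 5.48 CPM in control CD4 cells, and 86.98 ± 4.89 CPM in L-gp130, against 77.96 ± 6.77 CPM in control CD8 cells, and was not called. It shares 776 exonic bases on its own strand with Fam129c, which fell in CD4 (log2 fold change -1.19, adjusted p = 0.0268) and rose in CD8 cells (0.79, adjusted p = 0.00867).

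In the non-oxidative arm edgeR called 0 of 4 genes in either cell type. Over all genes tested 11.1% rose and 7.75% fell in CD4 cells, and 10.5% rose and 10.5% fell in CD8 cells. At an unadjusted p under 0.05 there were 2 in CD4 (Tkt and Rpe) and 1 in CD8 cells (Tkt), and DESeq2 called Tkt in both. An unadjusted p of this size was common over all genes. By p, Tkt ranked 2876 and Rpe 4720 of the 15016 genes tested in CD4 cells. In CD8 cells Tkt ranked 4048 of 14254. On Salmon reads summed per gene edgeR called Rpe higher in CD4 cells (adjusted p = 0.0159). Tkt, the transketolase that links the arm to glycolysis, lay between 212 and 327 CPM (median 257) in L-gp130 and between 188 and 211 CPM (median 199) in control CD4 libraries. In CD8 cells Tkt was at 322, 289.5 and 255 CPM in L-gp130 and between 229 and 293 CPM (median 239) in control libraries. Its CD4 libraries did not overlap, but the log2 fold change of 0.32 ± 0.11 just missed the threshold (edgeR adjusted p = 0.0518), and 7 of 14 other settings called it. In CD8 cells the groups overlapped, with 0.22 ± 0.09 (adjusted p = 0.0937). Only 28.6% of Tkt TPM in L-gp130 and 29.5% in control CD4 cells, and 37.8% in L-gp130 and 40.5% in control CD8 cells, was on transcripts annotated as protein-coding.

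Taldo1, the transaldolase, was at 214 ± 34.04 CPM in L-gp130, against 193 ± 9.36 CPM in control CD4 cells, and 181 ± 10.8 CPM in L-gp130, against 174 ± 10.5 CPM in control CD8 cells. Rpia, the ribose 5-phosphate isomerase, was at 47.2 ± 7.37 CPM in L-gp130, against 47.3 ± 4.15 CPM in control CD4 cells, and 50.1 ± 2.61 CPM in L-gp130, against 47.5 ± 4.83 CPM in control CD8 cells. Rpe, the ribulose phosphate epimerase, was at 45.4 ± 5.38 CPM in L-gp130, against 40.2 ± 2.45 CPM in control CD4 cells, and 41.7 ± 2.04 CPM in L-gp130, against 40.8 ± 3.70 CPM in control CD8 cells. For each of these 3 genes the groups overlapped in both cell types. Pgm1, the phosphoglucomutase that joins glucose 6-phosphate to glycogen, was not called, and neither was Pgm2. Pgm1 lay between 38.1 and 47.6 CPM (median 43.5) in L-gp130 and between 32.8 and 39.3 CPM (median 36.8) in control CD4 libraries (log2 fold change 0.19 ± 0.08, edgeR adjusted p = 0.113). In CD8 cells Pgm1 was at 40.5, 37.96 and 34.6 CPM in L-gp130 and between 28.5 and 36.2 CPM (median 34.8) in control libraries (0.17 ± 0.07, adjusted p = 0.114). The libraries of Pgm1 overlapped in both cell types. Pgm2 was at 29.6 ± 2.85 CPM in L-gp130, against 29.4 ± 1.02 CPM in control CD4 cells, and 31.99 ± 1.94 CPM in L-gp130, against 27.5 ± 2.90 CPM in control CD8 cells.

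Whether the L-gp130 effect differed between CD8 and CD4 cells was asked with a fit of all 21 libraries that has a term for cell type and genotype together. The fit takes all libraries as independent, and whether a CD4 and a CD8 library came from the same mouse is not known, which bears on its intervals and p-values. CD4+ cells were selected positively and CD8+ cells negatively, and depth went with genotype only in the CD4 libraries. Effects of these cannot be told apart from those of cell type. In edgeR 0 of 33 members passed in either direction, as in DESeq2. At an unadjusted p under 0.05 there were 6, which is 18.2% of the members, against 17.5% of all genes, a share near the background. At an adjusted p under 0.05 over all 15758 genes tested the effect was higher in CD8 cells for 1.62% and higher in CD4 cells for 1.83%. The 6 members were Gapdh, Pfkp, Pgk1 and Pkm, with smaller effects in CD8 than in CD4 cells, and Pfkm and Eno3, with larger ones. On the log2 scale, with its 95% interval, the CD8 minus CD4 difference was -0.38 (-0.64 to -0.11) for Gapdh, -0.29 (-0.51 to -0.06) for Pgk1 and 0.38 (0.12 to 0.64) for Eno3. For Ldha it was -0.03 (-0.25 to 0.19), an interval that spans 0. Single fits without 1 library called 1 gene each, namely Gapdh without L-gp130 CD4 replicate 4 (adjusted p = 0.0243), Pfkm without L-gp130 CD4 replicate 6 (0.0418) and Eno3 without control CD8 replicate 3 (0.0348). Eno3 was also called on the joined deposited gene tables (0.0311).

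In the branches to glycogen and glycerol, CD4 cells had 1 of 14 genes higher and 5 lower, where 11.1% of all genes tested rose and 7.75% fell. The glycerol 3-phosphate dehydrogenases fell in both cell types. Gpd1, the cytosolic enzyme, had log2 fold changes of -1.25 ± 0.32 in CD4 (edgeR adjusted p = 0.016) and -1.38 ± 0.38 in CD8 cells (adjusted p = 0.0261). Gpd2, the mitochondrial enzyme, had -0.79 ± 0.12 (adjusted p = 0.000699) and -0.68 ± 0.15 (adjusted p = 0.012). Gpd1l, a relative of Gpd1, had -0.46 and -0.42. Gyg, the glycogenin that primes glycogen, rose in CD4 cells (0.46 ± 0.08, adjusted p = 0.00132), and Ugp2, which makes UDP-glucose, fell in CD8 cells (-0.48 ± 0.10, adjusted p = 0.00679). The glycogen synthase gene Gys1 (-0.33) and the phosphorylase gene Pygm (-1.30) also fell in CD4 cells, and were named after their values were seen.

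Around pyruvate, CD4 cells had 2 of 16 genes higher and 2 lower, and 3 of 15 fell in CD8 cells. Over all genes tested, 11.1% rose and 7.75% fell in CD4 cells, and 10.5% fell in CD8 cells. Pdk1, a kinase that inactivates pyruvate dehydrogenase, fell in both cell types, with log2 fold changes of -0.71 ± 0.18 in CD4 (edgeR adjusted p = 0.0175) and -0.91 ± 0.10 in CD8 cells (adjusted p = 0.000336). Pdp1, the opposing phosphatase, also fell in both (-0.50 ± 0.14 and -0.85 ± 0.16). The kinase gene Pdk3 rose in CD4 cells (0.66 ± 0.10, adjusted p = 0.000794), and Pdk2 fell in CD8 cells (-0.53 ± 0.15, adjusted p = 0.0302). Gpt2, a mitochondrial alanine transaminase, rose in CD4 cells (1.45 ± 0.40, adjusted p = 0.0247). The CD8 minus CD4 difference in effect passed its test for Pdk3 and Gpt2 (-0.50 and -2.06, adjusted p = 0.0416 and 0.049), and also for Ugp2 (-0.45, 0.0122) and for the glucokinase gene Adpgk (0.50, 0.0298).

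Among other isozymes and partners, 1 of 14 rose and 1 fell in CD4 cells, and 1 of 13 rose in CD8 cells. Of all genes tested, 11.1% rose and 7.75% fell in CD4 cells, and 10.5% rose and 10.5% fell in CD8 cells. Bsg, the chaperone of the lactate transporters, rose in CD4 cells (0.58 ± 0.18, edgeR adjusted p = 0.0463), and Adpgk, the ADP-dependent glucokinase, fell (-0.41 ± 0.08, adjusted p = 0.00543). Pklr, the liver and red cell pyruvate kinase, rose in CD8 cells (1.83 ± 0.28, adjusted p = 0.00173). Of the neighbours of the pentose phosphate pathway, 1 of 7 fell in CD4 cells, and 1 of 6 rose and 1 fell in CD8 cells. The transketolase-like Tktl1 fell in CD4 cells (-1.61 ± 0.41, adjusted p = 0.0173). In CD8 cells the ribose phosphate kinase gene Prps1 rose (0.36 ± 0.07, adjusted p = 0.00418) and Prps2 fell (-0.38 ± 0.11, adjusted p = 0.0386).

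Cell cycle transcripts moved with the genotype in both cell types. Of 20 cell cycle genes 20 rose in CD4 and 19 in CD8 cells, and their summed level was 1597 to 4046 CPM in L-gp130, against 967 to 1697 CPM in control CD4 libraries, and 1799 to 2157 CPM in L-gp130, against 1009 to 1491 CPM in control CD8 libraries. Erythroid markers, at 39415 CPM, were highest in L-gp130 CD4 replicate 6, the library with the highest Hk1, Pfkm and Slc16a1 values, and their part in those values was not tested. In CD4 cells 2 of 4 tested plasma cell markers rose (Jchain and Derl3), the whole list summing to 86.2 to 187 CPM in L-gp130, against 36.2 to 77.5 CPM in control libraries. There 3 of 8 B cell markers fell (Cd79b, Ms4a1 and Fcrla), with sums of 244 to 629.8 CPM in L-gp130, against 263 to 965 CPM in control libraries, and 1 of 6 platelet markers rose. In CD8 cells 3 of 7 T cell markers fell (Cd3d, Cd3g and Cd2), and 3 of 10 erythroid markers rose. The erythroid sums overlapped there, at 67.4 to 154 CPM in L-gp130, against 48.6 to 682 CPM in control libraries. Of the monocyte and macrophage markers 5 of 9 fell in CD8 cells, the list summing to 274 to 449 CPM in L-gp130, against 389 to 801 CPM in control libraries. Over all genes tested 11.1% rose and 7.75% fell in CD4 cells, and 10.5% rose and 10.5% fell in CD8 cells. Of the CD4 markers Cd4 and Zbtb7b, 1 of 2 fell in CD4 cells. Their sums were 669 to 999 CPM in L-gp130, against 904 to 1089 CPM in control CD4 libraries. The CD8 markers Cd8a and Cd8b1 summed to 35.7 to 128 CPM in L-gp130, against 29.1 to 36.7 CPM in control CD4 libraries. Both fell in CD8 cells, where they summed to 1337 to 1578 CPM in L-gp130, against 1779.7 to 2365 CPM in control libraries. The part of these marker differences in the member results was not tested. No marker of these lists was at 0 in a whole group.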

How the data were processed

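CD4+ cells were taken by positive and CD8+ cells by negative magnetic selection, per the labels' protocols. Tools named in the submitters' processing notes, without role or order, are cutadapt 3.4, Trimmomatic 0.39, Salmon 1.5.2 and edgeR 3.34.1, with build GRCm38. The sources used here name no annotation release. Gene tables deposited by the authors, 1 for each cell type, hold estimated counts. Per the file headers, the authors also deposited Salmon's estimated counts (reads) and TPM per transcript for each library. Their tables of normalised CPM were not used.

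The gene counts were rounded to whole numbers. The test was the robust quasi-likelihood F test of edgeR 4.0.16 (R 4.3.3), after filterByExpr and TMM scaling (p-values adjusted by Benjamini-Hochberg over all genes tested, called at an adjusted p under 0.05), with labelled sex as a covariate and each cell type fitted apart. Each SE was derived as the absolute log2 fold change divided by √F, and intervals as normal ones. The cell type by genotype term used reads summed per gene over all 21 libraries, because the gene tables were scaled apart. Levels are TMM-normalised CPM and, between genes, summed TPM. Names and positions came from GENCODE M21, in which 51115 of 51201 IDs have a symbol. The 33 symbols have 34 IDs, since Aldoa has a second ID that was left out. Near-identical copies were found with BLAST 2.17.0 (95% identity over 200 bases). The fits were tested on simulated data. The lowest chi-square per gene between libraries of a group was 9.42, so none was a second copy of another.

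Labels number the mice within each group. Deviations of same-numbered libraries correlated at -0.29 to 0.22, so the numbers were not used as pairs. Alternatives were other scalings, limma-voom (limma 3.58.1), DESeq2 1.42.0, other filters, no sex term or sex from reads, Salmon's reads, equal depth, a replicate block and leaving out libraries. The use of reads of protein-coding transcripts only was chosen after seeing the data. All 33 members are named, with values of every library or group ranges for a fixed list and for the member with the smallest adjusted p in each step, and from the other lists at most 4 called genes each, by adjusted p, plus 2 further ones, and 1 gene of these lists is not reported here. The members and lists were chosen with earlier results of these data known. Counting intervals are not given, since replicate spread exceeds counting error at these depths.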

Additional observations from a re-analysis of the deposited data

Results flagged for a closer look

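Of 99 groups of 6 libraries checked over the 33 genes, 15 held a library whose gap to the nearest other was large for the range of its group, and chance flags about 1 in 20 groups. In L-gp130 CD4 replicate 1, which stood apart from the other CD4 libraries, 6 genes were highest in this way. They were Hk2 at 18.7 CPM (others 10.1 to 10.6), Slc16a3 at 29.8 CPM (9.68 to 13.3), G6pdx at 84.2 CPM (53.5 to 63.4), Pgls at 73.9 CPM (57.1 to 63.1), Pgd at 137.5 CPM (91.9 to 105) and Taldo1 at 278.6 CPM (188 to 215). All 3 genes of the oxidative pentose phosphate arm are among them. This library also had the highest monocyte and macrophage marker sum of its group (2347 CPM, others 554 to 1047), the highest CD8 sum (128 CPM, others 35.7 to 56.3), the highest neutrophil sum (248 CPM, others 31.2 to 242) and the lowest CD4 sum (669 CPM, others 914 to 999), and the part of these in its values was not tested. L-gp130 CD4 replicate 6 had the highest Pfkm, at 39.9 CPM (12.4 to 22.7), and the highest Slc16a1, at 163 CPM (49.3 to 88.3). In control CD4 replicate 2 Pgam1 was highest at 92.3 CPM (83.9 to 86.8) and Rpia lowest at 39.3 CPM (47.5 to 51.5). Control CD8 replicate 4 had the highest Tpi1 at 72.3 CPM (56.4 to 59.4), Pkm at 555 CPM (468 to 490.4), Tkt at 293 CPM (229 to 243) and Taldo1 at 195 CPM (168 to 174). In control CD8 replicate 3 Eno2 was highest at 1.97 CPM (0.606 to 1.08).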

How the results depend on the processing

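In the fits tried no called member changed direction. The CD4 count of 10 higher became 16 with no sex term, 14 with DESeq2 and 13 with Salmon's reads. It became 8 with upper quartile scaling or with no filter, 6 at an adjusted p under 0.01, and 6 to 14 without 1 library. Over all genes 1673 of 15016 rose in the main CD4 fit, 2379 with no sex term and 2094 with DESeq2. With Salmon's reads 2020 of 14974 rose, with upper quartile scaling 1488 of 15016 and with no filter 1313 of 27594. At an adjusted p under 0.01 it was 811 of 15016. The CD4 count of 1 lower became 0 at an adjusted p under 0.01, 2 with Salmon's reads and 2 with reads of protein-coding transcripts only (Ldhb and Pfkfb4), and 0 to 1 without 1 library. The CD8 count of 14 higher became 20 with Salmon's reads, where 2054 of the 14138 genes tested rose. With reads of protein-coding transcripts only it became 18, where 1827 of the 12087 genes tested rose. It became 8 at an adjusted p under 0.01, where 706 of 14254 rose, and 7 to 15 without 1 library. The CD8 count of 0 lower became 1, Ldhb (adjusted p = 0.0213), against control replicates 4 to 6 only, and stayed 0 to 0 without 1 library. The count of members whose effect was higher in CD8 became 1 with the joined gene tables, and 0 to 1 without 1 library, as did the count higher in CD4. The count of called CD4 shares became 0 without L-gp130 replicate 1 and control replicate 5, where fewer libraries also raise the smallest p, and lay at 3 to 6 without 1 library, while 0 to 0 CD8 shares were called. Why the other counts moved was not tested. With library totals alone 1822 CD8 genes rose and 1147 fell, against 1495 and 1501, and 17 members rose. With the replicate block 11 members rose and 1 fell in CD4, and 14 rose and 0 fell in CD8 (without the sex term). In CD8 the control replicates 4 to 6 have no L-gp130 library of the same number. The CD8 fold changes of the block therefore rest on replicates 1 to 3 alone. The block ended the calls of Gpi1 (CD4), Slc2a3 and Eno3 (CD8), and added Slc16a1 and Tkt in CD4, and in CD8 the same 2. Against control replicates 1 to 3 only, without a block, Slc16a1 and Tkt were likewise called in CD8 and Eno3 was not. Depth limits the genes near 1 CPM, Aldoc and Eno2.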
